A study of Mus musculus with 12 samples.

Results

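The macrophage and dendritic cell genes described here are Lyz2, C1qa, C1qb, C1qc, Csf1r, Adgre1, Cx3cr1, Itgax, Pla2g7 and Cd68. They were taken by name from a table of 55891 genes, and 9 of the 10 passed the filter of at least 1 TPM (a length-scaled share of a library's transcripts) in at least 6 libraries. Adgre1 reached 1 TPM in only 2 libraries and was not tested with the others. In short, 8 of the 9 tested genes had higher mean log2 levels in ERBB3-dIE than in Erbb3-FF mice of one litter, and all 9 had lower ones in the other litter. Higher levels in the first and lower in the second were seen for 8 of the 9, against 31.0% of all tested genes. Averaged over both litters no genotype difference of the 9 passed the test. No gene in the table passed the test of the difference between the litters.

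The study sequenced polyadenylated RNA of scraped ileal mucosa, the inner lining of the last stretch of the small intestine, from 12 untreated mice, 1 library per mouse. All 6 controls carried the label Erbb3-FF and the other 6 mice the label ERBB3-dIE. Litter A held 4 Erbb3-FF mice (numbers 3 to 6) and 3 ERBB3-dIE mice (4 to 6), and litter B held 2 Erbb3-FF mice (1 and 2) and 3 ERBB3-dIE mice (1 to 3). The series title names the receptor tyrosine kinase ErbB3 and the intestinal barrier. The labels state neither strain, age and sex nor the driver of the gene's deletion, nor what FF and dIE abbreviate. A scraping is a mixed sample, so fewer cells of a type and less RNA per cell cannot be told apart in any value below.

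Intestinal macrophages live in the lamina propria below the epithelium, where they take up dying cells and microbes. They are replenished from blood monocytes and depend on Csf1r, the receptor for the growth factors Csf1 and Il34. Dendritic cells of the same tissue carry antigen to lymphoid follicles and lymph nodes. C1qa, C1qb and C1qc encode the 3 chains of C1q, which starts the classical complement pathway and which macrophages make. Lyz2 encodes the lysozyme of myeloid cells, and its neighbour Lyz1 that of Paneth cells.

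The library-wide facts that bear on these genes are few. Total TPM is 1000000 in each library by construction, and the depth behind a value cannot be read from it. A library had 12344 to 13364 genes at 1 TPM or more and 7.94% to 22.1% of its TPM in genes encoded by mitochondria, and Pearson correlations between libraries lay between 0.878 and 0.955. Ribosomal sequence (Mir6236 and Rn18s-rs5) reached 10.2% and 10.8% in 2 controls of litter A, mice 5 and 6, while no other library exceeded 1.62%. Gene-level Erbb3 was not lower in the ERBB3-dIE mice of either litter. It was 87.3 to 120.4 TPM in Erbb3-FF and 104 to 120.5 TPM in ERBB3-dIE mice of litter A, which overlapped, and 136 to 151 TPM in Erbb3-FF and 156 to 206 TPM in ERBB3-dIE mice of litter B, where every ERBB3-dIE mouse was higher. A total over the whole gene does not test a deletion of part of it, so each genotype named below is the label of the library, which these values do not check. Erbb3-FF mice 1, 2 and 3 stood apart in B cell genes and ERBB3-dIE mice 4 and 5 in smooth muscle genes, and these values are given beside the results they touch.

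The lysozyme pair, the complement genes and Pla2g7 carry the results below, so the 250 bases upstream of their annotated starts are shown for 5 genes. They come from the RefSeq table of build GRCm38.p6, which held 7 of the 10 genes (C1qa, Csf1r and Adgre1 were not in it), and are not coordinates of the build of the expression table. Capitals mark GAGGAA, the core letters of PU.1 sites, a factor needed by myeloid cells, on either strand.
Lyz2, chr10:117282273-117282522, minus strand: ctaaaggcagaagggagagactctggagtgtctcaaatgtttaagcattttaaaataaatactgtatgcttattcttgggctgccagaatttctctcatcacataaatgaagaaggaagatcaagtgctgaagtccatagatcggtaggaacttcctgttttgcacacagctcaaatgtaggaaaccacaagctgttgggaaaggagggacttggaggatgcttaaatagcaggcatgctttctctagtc
Lyz1, chr10:117292869-117293118, minus strand: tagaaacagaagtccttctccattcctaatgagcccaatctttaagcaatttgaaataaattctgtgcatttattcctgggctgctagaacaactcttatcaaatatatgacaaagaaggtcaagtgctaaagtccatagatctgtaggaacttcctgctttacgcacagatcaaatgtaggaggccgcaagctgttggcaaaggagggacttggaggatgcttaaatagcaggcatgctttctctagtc
C1qb, chr4:136886201-136886450, minus strand: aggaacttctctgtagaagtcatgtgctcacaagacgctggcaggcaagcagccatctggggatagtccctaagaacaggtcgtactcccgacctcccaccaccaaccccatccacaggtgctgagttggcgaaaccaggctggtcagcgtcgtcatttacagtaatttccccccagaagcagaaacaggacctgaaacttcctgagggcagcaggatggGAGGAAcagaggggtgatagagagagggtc
C1qc, chr4:136892915-136893164, minus strand: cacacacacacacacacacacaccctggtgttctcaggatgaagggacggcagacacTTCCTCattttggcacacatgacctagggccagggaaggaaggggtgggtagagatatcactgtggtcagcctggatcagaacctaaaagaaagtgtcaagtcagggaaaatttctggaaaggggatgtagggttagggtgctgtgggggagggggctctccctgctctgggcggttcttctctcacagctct
Pla2g7, chr17:43568201-43568450, plus strand: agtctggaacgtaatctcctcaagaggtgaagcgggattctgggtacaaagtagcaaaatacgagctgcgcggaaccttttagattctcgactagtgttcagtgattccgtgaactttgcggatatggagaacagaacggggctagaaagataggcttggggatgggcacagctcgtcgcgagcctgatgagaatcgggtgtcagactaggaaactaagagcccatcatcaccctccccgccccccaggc
GAGGAA or its reverse complement TTCCTC occurred upstream of 3 of the 7 genes (C1qb, C1qc and Cd68) and in 23.3% of all 32851 such windows. These are letter matches in 1 window, not binding sites. The windows of Lyz2 and Lyz1 were identical at 205 of 250 positions in a gapped alignment (82.0%), whereas the other pairs among the 5 shared 54.8% to 59.2%.

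Lyz1 and Lyz2 lie next to each other in the RefSeq annotation, and C1qb, C1qc and C1qa lie side by side in this order. The longest Lyz2 transcript of the GENCODE M21 annotation has 1242 windows of 75 bases (the read length). Of these, 74 (5.96%) also occurred in a Lyz1 transcript of that annotation. The split of reads between the lysozymes is therefore uncertain for a part of the transcript that is small by length. Lyz1 was 5.29 to 102 times as high as Lyz2 in TPM, and the weight of shared reads in the Lyz2 values was not tested. The longest transcripts of the C1q chains shared no such window. Mir6983 and Gm52352 overlap Csf1r, Gm18069 and Gm20243 overlap Adgre1, Gm33858 overlaps Cx3cr1 and 1700071M16Rik overlaps Pla2g7.

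Lyz2 was the most abundant of the 10 genes, with a mean of 51.6 TPM over the 12 libraries (SD 46.9). C1qa (16.1), C1qb (12.5) and C1qc (9.61) followed. Csf1r (4.84), Pla2g7 (4.37), which encodes an enzyme that inactivates platelet-activating factor, and Cd68 (3.41), a glycoprotein of macrophage lysosomes, formed a middle group. Itgax (1.89), the integrin CD11c of dendritic cells and gut macrophages, Cx3cr1 (0.985), the fractalkine receptor, and Adgre1 (0.760), the surface marker F4/80, were lowest. TPM are per length, so these levels can be ranked. Lyz2 exceeded C1qa, C1qc exceeded Csf1r and Itgax exceeded Cx3cr1 in 12 of 12 libraries. The middle group overlapped: Csf1r exceeded Pla2g7 in 9 libraries, Pla2g7 exceeded Cd68 in 7, and Cx3cr1 exceeded Adgre1 in 8.

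The label holds for macrophages only in part. Of 16 further genes of resident macrophages, 8 passed the filter, among them the efferocytosis receptor gene Mertk (15.7 to 34.8 TPM). Cd163, Siglec1 and Vsig4, markers of scavenging tissue macrophages, stayed at or below 0.143 TPM in every library and were listed at 0 in some. Of 14 dendritic cell genes 4 passed. Flt3, Zbtb46 and Xcr1, which define dendritic cells, stayed at or below 0.958 TPM in all 12 libraries, while Irf8 (30.9 to 74.6) is also made by other cells. Neutrophil genes were near the floor: none of 7 passed, and S100a8 was listed at 0 throughout.

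**Figure D1:**
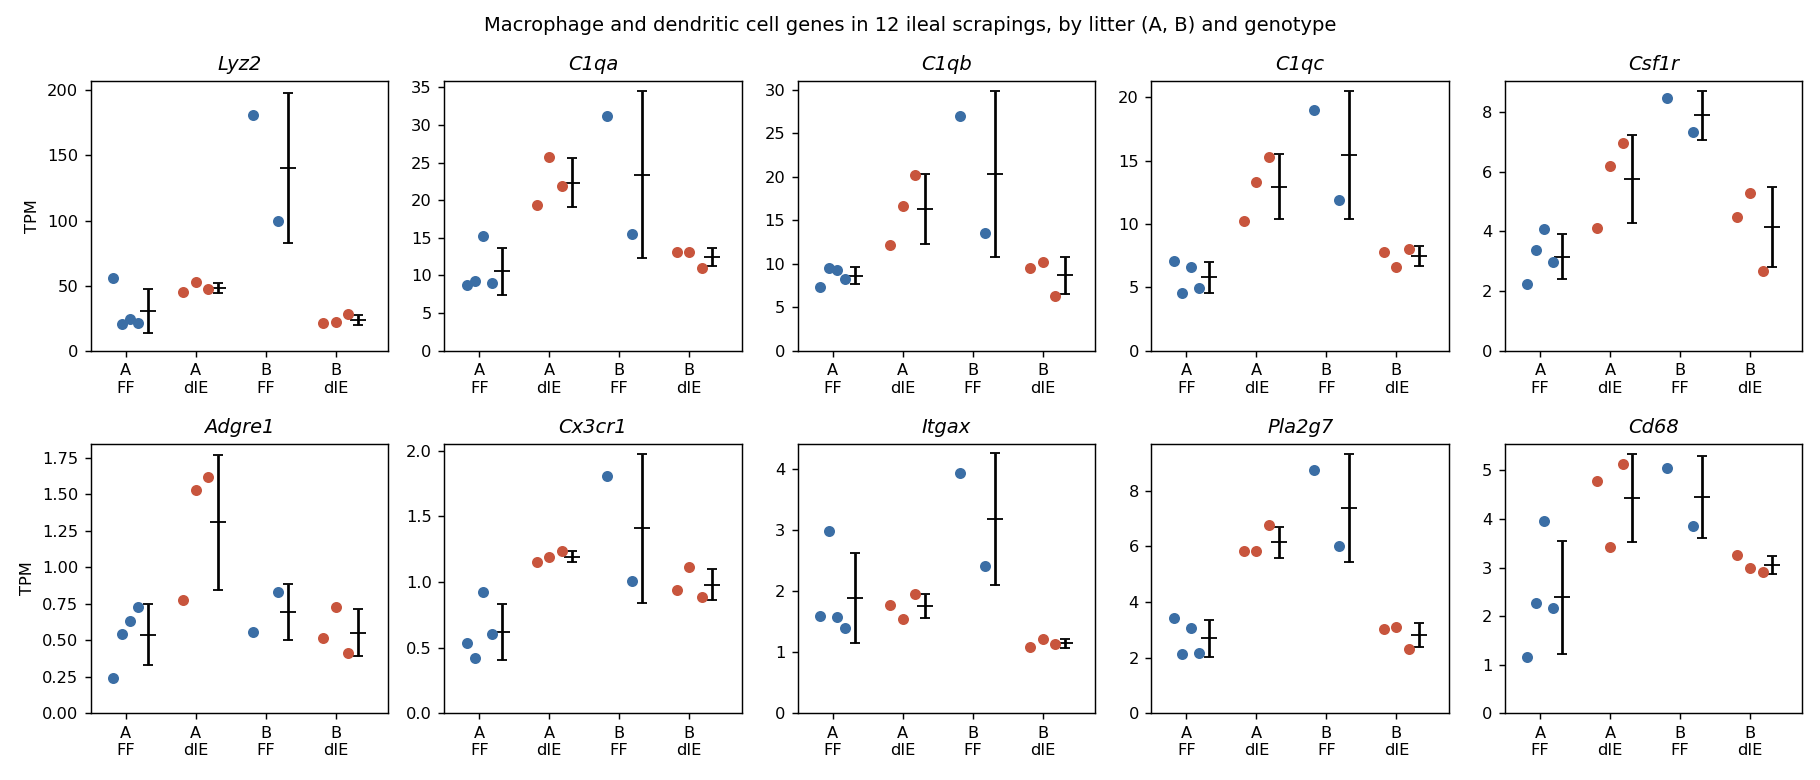
Level in TPM of each of the 10 genes in each library (points), by litter (A, B) and genotype (FF, Erbb3-FF; dIE, ERBB3-dIE), with the mean and SD of each group (bars; n = 4, 3, 2 and 3). In litter A the ERBB3-dIE points lie above all Erbb3-FF points for 7 of the 10 genes, and in litter B they lie below them for 8. Without Adgre1, which was not tested, these are 6 of 9 and 8 of 9, against 11.7% and 23.7% of all tested genes.

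C1qc shows the pattern most plainly. In litter A it was 7.09, 4.58, 6.60 and 4.91 TPM in Erbb3-FF mice 3 to 6 and 10.2, 13.3 and 15.3 TPM in ERBB3-dIE mice 4 to 6. In litter B it was 19.0 and 11.9 TPM in Erbb3-FF mice 1 and 2 and 7.77, 6.60 and 8.02 TPM in ERBB3-dIE mice 1 to 3. The ERBB3-dIE mice were thus all above their control littermates in litter A and all below them in litter B.

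C1qa behaved likewise at a higher level. In litter A it was 8.68, 9.28, 15.2 and 9.01 TPM in Erbb3-FF mice 3 to 6, against 19.3, 25.8 and 21.9 TPM in ERBB3-dIE mice 4 to 6. Litter B had 31.2 and 15.6 TPM in Erbb3-FF mice, against 13.1, 13.2 and 11.1 TPM in ERBB3-dIE mice. The groups did not overlap in either litter, but Erbb3-FF mouse 1 lay far above its littermate. C1qb in litter A was 7.34, 9.47, 9.25 and 8.28 TPM in Erbb3-FF mice and 12.2, 16.6 and 20.2 TPM in ERBB3-dIE mice. Its values in litter B were 27.0 and 13.6 TPM in Erbb3-FF mice and 9.52, 10.2 and 6.25 TPM in ERBB3-dIE mice. The 3 chains kept their order in nearly every library: C1qa exceeded C1qb in 11 of 12 and C1qc in 12 of 12, by 1.22 to 2.30 times for C1qc.

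Pla2g7 separated the groups as clearly as the complement genes. In litter A it was 3.43, 2.13, 3.05 and 2.15 TPM in Erbb3-FF mice 3 to 6 and 5.82, 5.82 and 6.78 TPM in ERBB3-dIE mice 4 to 6. For litter B the values were 8.75 and 6.00 TPM in Erbb3-FF mice and 3.02, 3.11 and 2.32 TPM in ERBB3-dIE mice. The 3 ERBB3-dIE libraries of litter B lay within the range of the Erbb3-FF libraries of litter A.

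Lyz2 had the widest spread. In litter A it was 56.1, 20.8, 24.0 and 21.3 TPM in Erbb3-FF mice 3 to 6 and 45.2, 52.5 and 47.6 TPM in ERBB3-dIE mice 4 to 6. In litter B it was 181 and 99.8 TPM in Erbb3-FF mice 1 and 2 and 21.0, 21.9 and 28.4 TPM in ERBB3-dIE mice 1 to 3. The groups of litter B lay far apart, while those of litter A overlapped because Erbb3-FF mouse 3 exceeded every ERBB3-dIE mouse. Lyz1 did not follow: it was 1311 and 528 TPM in Erbb3-FF mice 1 and 2 and 759, 1786 and 1118 TPM in their ERBB3-dIE littermates. The ratio of Lyz1 to Lyz2 ran from 5.29 to 102 across libraries.

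Csf1r in litter A was 2.23, 3.37, 4.07 and 2.96 TPM in Erbb3-FF mice and 4.11, 6.18 and 6.98 TPM in ERBB3-dIE mice. In litter B it was 8.48 and 7.32 TPM in Erbb3-FF mice and 4.49, 5.28 and 2.66 TPM in ERBB3-dIE mice. Neither litter had overlapping groups, though the gap in litter A was narrow. Its ligand gene Csf1 did not pass the filter (0.229 to 1.54 TPM). Il34, the other ligand gene, was 0.223 to 2.54 TPM and had adjusted p-values of at least 0.780 with limma in each genotype comparison.

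Cd68 was 1.16, 2.27, 3.95 and 2.16 TPM in Erbb3-FF and 4.77, 3.42 and 5.12 TPM in ERBB3-dIE mice of litter A, which overlapped. The values in litter B were 5.04 and 3.86 TPM in Erbb3-FF and 3.25, 3.00 and 2.90 TPM in ERBB3-dIE mice. Itgax was the exception in litter A, at 1.59, 2.99, 1.57 and 1.40 TPM in Erbb3-FF and 1.78, 1.56 and 1.96 TPM in ERBB3-dIE mice. In litter B it was 3.95 and 2.42 TPM in Erbb3-FF and 1.09, 1.23 and 1.13 TPM in ERBB3-dIE mice, with no overlap.

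The lowest 2 genes were separated in litter A only. Cx3cr1 was 0.536, 0.418, 0.923 and 0.605 TPM in Erbb3-FF and 1.15, 1.19 and 1.23 TPM in ERBB3-dIE mice of litter A. Litter B had 1.81 and 1.01 TPM in Erbb3-FF and 0.940, 1.11 and 0.888 TPM in ERBB3-dIE mice. Adgre1 was 0.245, 0.545, 0.634 and 0.731 TPM in Erbb3-FF and 0.777, 1.53 and 1.62 TPM in ERBB3-dIE mice of litter A. In litter B it was 0.557 and 0.829 TPM in Erbb3-FF and 0.514, 0.730 and 0.415 TPM in ERBB3-dIE mice. Cx3cl1, which encodes fractalkine, the ligand of Cx3cr1, was 24.5 to 42.8 TPM with differences of −0.14 in litter A and −0.16 in litter B (log2; limma adjusted p = 0.744 and 0.844).

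Genotype differences below are in log2(TPM + 0.5), ERBB3-dIE minus Erbb3-FF, from limma with p-values adjusted over all 12605 tested genes and a threshold of 0.05. With a pseudocount of 0.5 they understate the change of low genes. Averaged over both litters, 0 of the 9 genes passed, against 5.36% of all tested genes in either direction, and 0 of the 9 had an unadjusted p under 0.05 (21.8% of all genes did; by direction 1.66% of all genes were called higher and 3.70% lower). Their median difference was 0.13, and −0.000658 over all tested genes. Itgax came closest, at −0.49 (SE 0.24, limma adjusted p = 0.261). Exact 2-sided permutation tests within litters gave p = 0.0857 for Itgax and 0.149 to 0.914 for the other 9 of the 10 genes. In the authors' deposited table no gene of the 10 had an adjusted p under 0.05, and Itgax was lowest there too (log2 fold change −0.65, adjusted p = 0.0917).

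In litter A, C1qc and Pla2g7 rose in ERBB3-dIE mice. C1qc was higher by 1.10 (SE 0.21, limma adjusted p = 0.0412), or 2.23-fold in mean TPM, and Pla2g7 by 1.08 (SE 0.20, adjusted p = 0.0368), or 2.28-fold. These are 2 of 9 genes, against 0.373% of all tested genes called higher. C1qa (1.08, SE 0.25, adjusted p = 0.0670), C1qb (0.87), Cd68 (0.84), Lyz2 (0.79), Csf1r (0.77) and Cx3cr1 (0.61) did not pass, and Itgax was −0.04. Of the 9, 8 had an unadjusted p under 0.05, against 19.5% of all genes. The median of the 9 was 0.84, and 0.08 over all tested genes. The exact permutation test in this litter alone gave its smallest possible p, 0.0286, for C1qb, C1qc, Adgre1 and Pla2g7.

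Both calls rest on few mice and narrow margins. With each of the 12 libraries left out in turn, C1qc passed in 2 of 12 fits (limma adjusted p 0.0478 to 0.165) and Pla2g7 in 3 of 12 (0.0340 to 0.132), while both differences kept their sign. Both passed without Erbb3-FF mouse 3 or 5, Pla2g7 also without ERBB3-dIE mouse 3, and neither without any of the other 9 libraries. Fitted on litter A alone, neither passed (limma adjusted p = 0.117 and 0.112), and neither passed without the ribosome-rich Erbb3-FF mice 5 and 6 (0.109 and 0.108).

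In litter B, Lyz2 and Pla2g7 fell in mice labelled ERBB3-dIE. Lymphoid follicle genes moved with them, all 11 listed summing to 340 and 185 TPM in the Erbb3-FF mice and 13.1 to 21.2 TPM in the ERBB3-dIE mice. With the mean log2 of the 4 follicle genes that passed the filter as a covariate, neither gene passed (−0.10 and −0.41, limma adjusted p = 0.965 and 0.849). In that fit, added after the data were seen, only 1 of all 12605 tested genes passed in litter B, against 115 in the main fit. The planned fit with the B cell list as covariate left larger differences, Lyz2 at −0.98 and Pla2g7 at −0.77. Neither passed there (limma adjusted p = 0.181 and 0.496), and 2 of all 12605 genes did. In the main fit Lyz2 was lower in litter B by −2.49 (SE 0.39, limma adjusted p = 0.0310), a mean of 140 TPM in Erbb3-FF mice being 5.91 times the 23.8 TPM of ERBB3-dIE mice. Pla2g7 differed by −1.23 (SE 0.24, adjusted p = 0.0463), the Erbb3-FF mean being 2.62 times higher. These are 2 of 9 genes, against 0.666% of all tested genes called lower. C1qb (−1.13), Itgax (−1.13, adjusted p = 0.0907), C1qc (−0.97, adjusted p = 0.101), Csf1r (−0.90), C1qa (−0.81), Cd68 (−0.47) and Cx3cr1 (−0.34) did not pass. Of the 9, 7 had an unadjusted p under 0.05, against 14.5% of all genes. The median was −0.97, and −0.10 over all tested genes, which became 0.03 with quantile normalization and 0.01 with median-of-ratios scaling. The exact test in this litter cannot give a p below 0.1, which 7 of the 10 genes reached.

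Litter B has only 2 control mice, and both calls depended on them; without either, the 1 that remains is assumed to vary like the other groups. Lyz2 did not pass without Erbb3-FF mouse 1 (−2.06, limma adjusted p = 0.221) or without mouse 2 (−2.92, 0.0578), and it passed in 5 of the 12 fits that left out 1 library (adjusted p 0.00275 to 0.221): those without Erbb3-FF mouse 3, 4 or 5 or ERBB3-dIE mouse 5 or 6. Pla2g7 passed in 1 of these 12 fits, without Erbb3-FF mouse 3 (adjusted p 0.0225 to 0.344), and neither gene passed in litter B alone (0.0677 and 0.154).

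**Figure D2:**
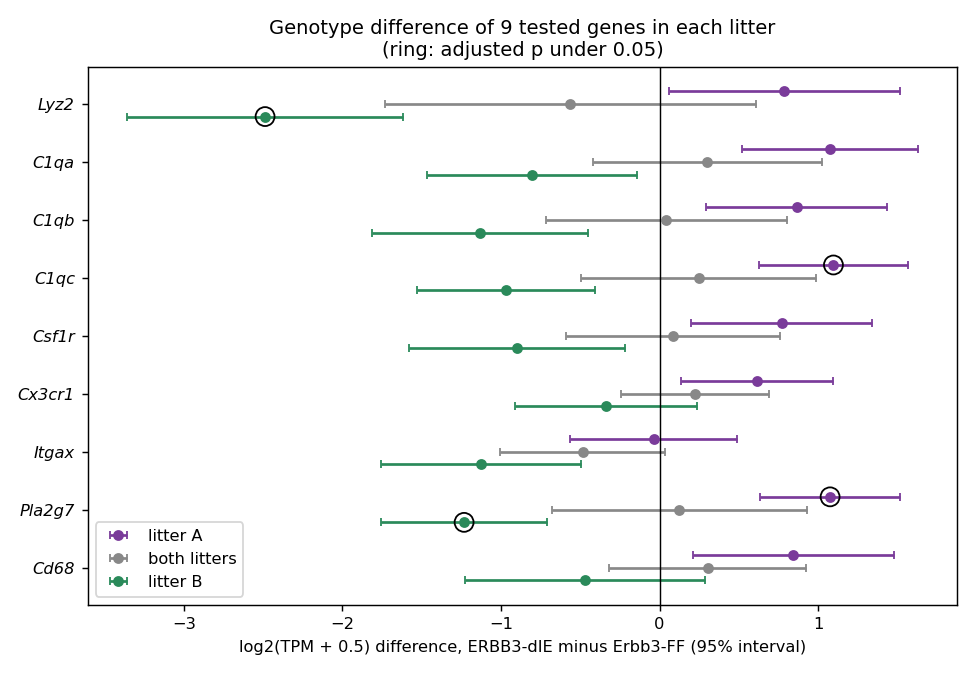
Genotype difference in log2(TPM + 0.5) with its 95% interval for the 9 tested genes, in litter A, in litter B and over both litters (limma). Rings mark adjusted p under 0.05: C1qc (1.10) and Pla2g7 (1.08) in litter A, Lyz2 (−2.49) and Pla2g7 (−1.23) in litter B, and none over both litters.

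The difference between the litters was itself tested, by subtracting the litter A value of ERBB3-dIE minus Erbb3-FF from the litter B value. No gene in the table passed (0.00% of 12605), and so 0 of the 9 did, although all 9 had an unadjusted p under 0.05 with a negative sign, against 7.58% of all tested genes. Pla2g7 was at −2.31 (SE 0.31, limma adjusted p = 0.0688), Lyz2 at −3.27 (SE 0.51, 0.104) and C1qc at −2.07 (SE 0.33, 0.104). By unadjusted p these 3 ranked 3, 7 and 9 among the 12605 genes. C1qb (−2.0), C1qa (−1.88) and Csf1r (−1.67) ranked 34, 41 and 90, and Cd68 (−1.31), Itgax (−1.09) and Cx3cr1 (−0.95) ranked 456, 457 and 538. The median was −1.88, and −0.15 over all tested genes. Leaving out Erbb3-FF mouse 3 brought 3 of the 9 genes past the threshold, and 36 of all 12605. The median was −2.37 without Erbb3-FF mouse 2 and −1.51 without mouse 1. Each of the latter 2 fits has 1 control mouse in litter B, whose spread comes from the other groups, and mouse 1 had the higher C1q values of the pair.

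By separation of ranges, ERBB3-dIE mice lay above all Erbb3-FF mice of litter A in 6 of the 9 tested genes and in 11.7% of all tested genes. They lay below all Erbb3-FF mice of litter B in 8 of 9, against 23.7% of all. Both held for 5 of 9 (C1qa, C1qb, C1qc, Csf1r and Pla2g7), against 1.20% of all, a combination counted after its values were seen. Over both litters the genotypes overlapped in all 9 (2.44% of all tested genes did not overlap). The litter difference averaged over genotypes passed for 0 of the 9, against 8.55% of all.

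**Figure D3:**
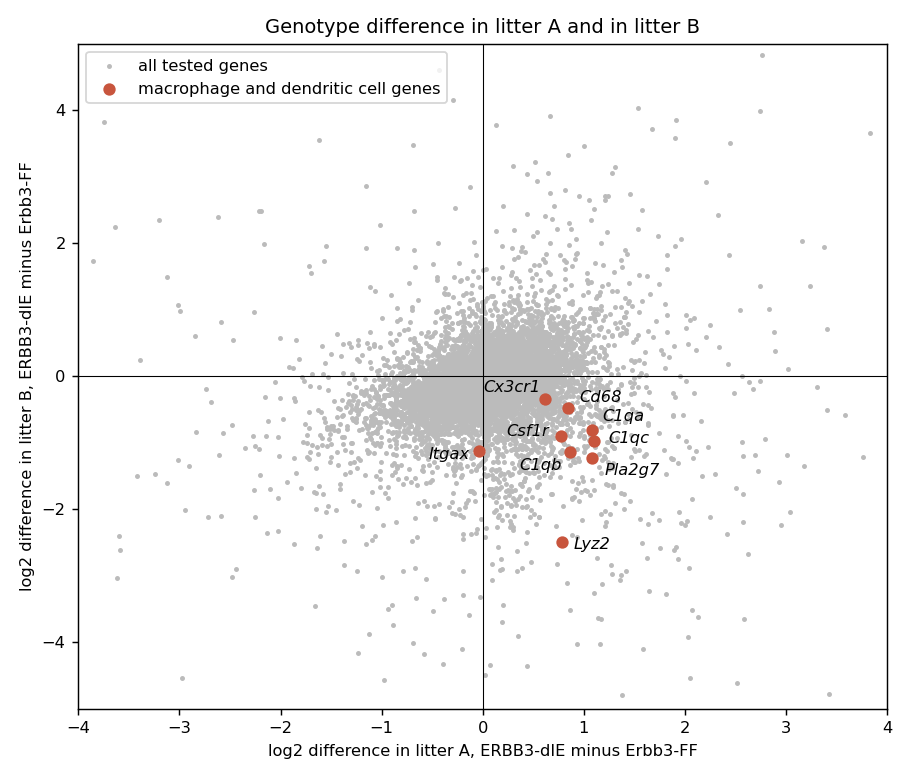
Genotype difference in log2(TPM + 0.5) in litter A (horizontal) and litter B (vertical) for each tested gene (grey), with the 9 macrophage and dendritic cell genes in red; 21 genes lie outside the axes. Of the 9, 8 lie to the right of 0 and below 0, as do 31.0% of all tested genes, and Itgax lies just left of 0.

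Among the 10 genes, Pearson r of log2 levels over the 12 libraries ran from 0.05 (Itgax with Adgre1) to 0.95 (Pla2g7 with C1qc), with a median of 0.69 over the 45 pairs. Without the 2 libraries farthest from the median in the mean log2 level of the 10 genes, Erbb3-FF mouse 1 and ERBB3-dIE mouse 6, the median was 0.60 and the range −0.39 to 0.90. Over all 12 libraries, each pair among the C1q genes, Pla2g7, Csf1r and Cx3cr1 had an r of at least 0.77. With these genes Cd68 had 0.67 to 0.83 and Lyz2 0.60 to 0.85, highest with Pla2g7 and C1qc. Adgre1 (0.45 to 0.63) and Itgax (0.22 to 0.65) were farther from them. These are descriptions of 12 libraries that share genotype and litter.

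Outside the 10, the genes most like the mean log2 level of the C1q chains were Tyrobp (r = 0.96), Aif1, Ms4a6c, Clec7a, C1ra, C4b, Gm2a and Apoe (0.91). Without the same 2 libraries their r was 0.82 to 0.92. Tyrobp encodes a signalling adaptor of myeloid receptors, Aif1 the macrophage protein IBA1, Clec7a the fungal glucan receptor Dectin-1, and C1ra and C4b further complement components. Their differences were 0.57 to 1.74 in litter A and −2.17 to −0.60 in litter B, and none passed the limma test in either litter (smallest adjusted p = 0.0664 in A and 0.0657 in B).

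Lists of related myeloid genes gave few single calls. Of the 8 tested genes of resident macrophages, 0 passed in litter A (median 0.76) and 0 in litter B (median −0.91). Aif1 in litter A was 1.69 to 2.88 TPM in Erbb3-FF and 5.11 to 7.39 TPM in ERBB3-dIE mice. Mertk went the other way in litter A, where its lowest Erbb3-FF value (17.2 TPM) exceeded the median ERBB3-dIE value (15.9 TPM). Of 12 tested genes of shared myeloid machinery, 0 passed in either litter (medians 0.40 and −0.73). Tyrobp, the nearest in litter A (0.95, limma adjusted p = 0.0664), was 6.39 to 9.92 TPM in Erbb3-FF and 12.95 to 17.2 TPM in ERBB3-dIE mice there. Of 3 tested monocyte genes 0 passed (medians 1.12 and −0.18), Ly6c2 being nearest (1.12 in litter A, adjusted p = 0.0693).

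Of the 4 tested dendritic cell genes (medians 0.61 and −0.25), all 4 had positive differences in litter A, and in litter B 2 had positive and 2 negative ones. Itgae, the integrin CD103, which intraepithelial lymphocytes also carry, was at 0.94 over both litters without passing (limma adjusted p = 0.0630). Sirpa, the receptor for the signal CD47, fell in litter B (−1.15, limma adjusted p = 0.0491), from 5.56 and 3.31 TPM to 1.43, 1.48 and 2.14 TPM. Its litter A difference was 0.68 (adjusted p = 0.101). Among 4 tested growth factor and chemokine genes (medians 0.22 and −0.24), Tgfb1, which encodes a cytokine that shapes gut macrophages, fell in litter B (−1.65, adjusted p = 0.0310). It was 10.1 and 5.23 TPM in the Erbb3-FF and 2.23, 1.83 and 1.92 TPM in the ERBB3-dIE mice. Of 4 tested integrin genes 0 passed (medians 0.60 and −0.89), and Itgb2, the partner chain of Itgax, was at 0.67 in litter A and −1.05 in litter B (adjusted p = 0.220 and 0.169).

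Complement genes beside C1q had medians of 0.81 in litter A (0 of 8 called) and −1.35 in litter B (2 of 8 called lower). The called genes were C1s1, a protease that acts with C1q (−1.79, limma adjusted p = 0.0348), and Serping1, the inhibitor of that protease (−1.60, adjusted p = 0.0310). Serping1 was 11.9 and 7.02 TPM in Erbb3-FF and 2.41, 2.78 and 2.91 TPM in ERBB3-dIE mice of litter B. In litter A it was 4.09, 4.96, 6.39 and 3.89 TPM in Erbb3-FF and 8.51, 12.5 and 8.30 TPM in ERBB3-dIE mice, with no overlap. C4b, cleaved after C1q binds, was 1.74 higher in litter A without passing (adjusted p = 0.0670).

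The pathway around Pla2g7 gave no call: of 7 tested genes that make, sense or break down platelet-activating factor, 0 passed in any genotype comparison (medians 0.23 in litter A and −0.23 in litter B). Lysosome genes had medians of −0.04 and −0.19. Of 9 tested, Lipa, the lysosomal acid lipase, fell over both litters (−1.24, limma adjusted p = 0.00843) and in litter B (−1.67, adjusted p = 0.0310), and Lgmn, a lysosomal protease, fell in litter B (−1.02, adjusted p = 0.0397). Lipa was lower in every ERBB3-dIE library (5.81 to 11.1 TPM) than in every Erbb3-FF library (12.7 to 25.9 TPM), unlike each of the 10 genes.

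**Figure D4:**
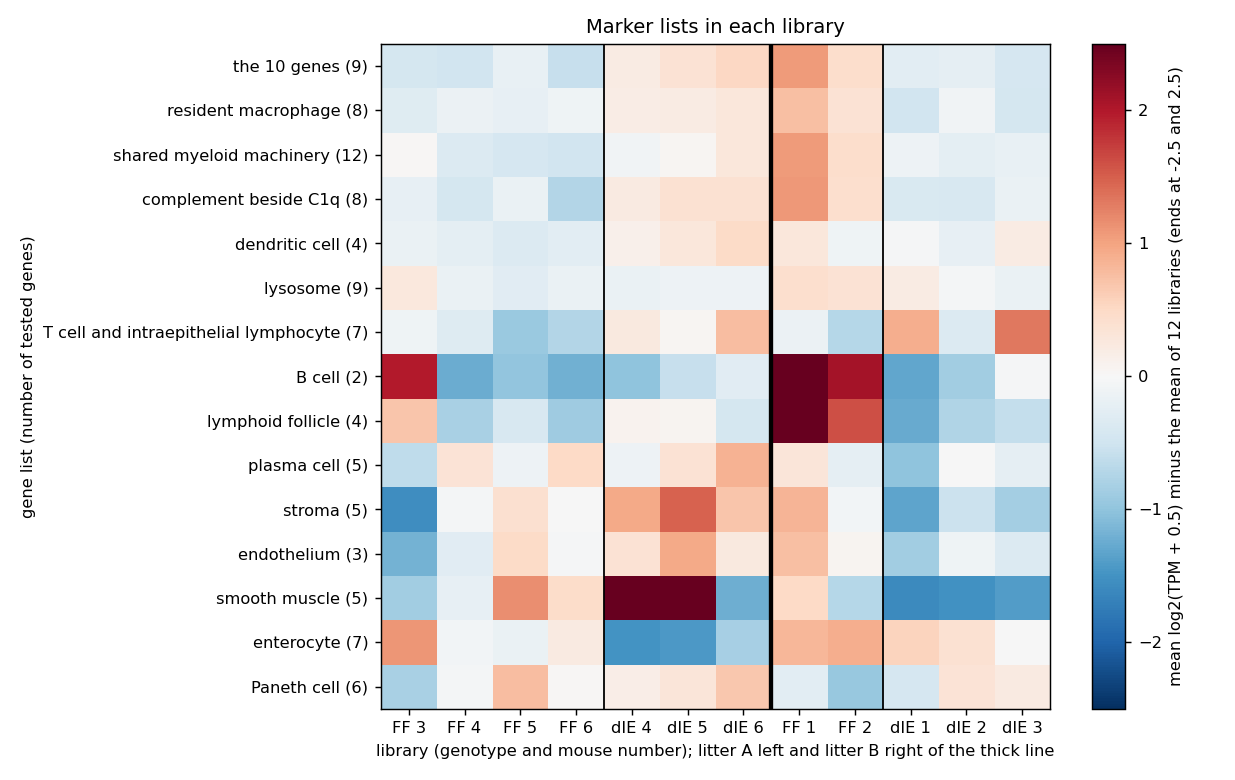
Mean log2(TPM + 0.5) of each marker list in each library (FF, Erbb3-FF; dIE, ERBB3-dIE; numbers are mice), minus the list's mean over 12 libraries; colours end at −2.5 and 2.5 and the thick line parts litter A from litter B. The top row is highest in Erbb3-FF mouse 1 (1.07) and ERBB3-dIE mouse 6 (0.51), and the B cell row in Erbb3-FF mice 1, 2 and 3.

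Other cell types' markers differed between the same libraries. Of 7 B cell genes 2 passed the filter, and their mean log2 level was 5.90, 4.59 and 4.49 in the controls numbered 1, 2 and 3, with no other library above 2.48. The summed TPM of all 7 was 258, 81.5 and 79.2 in those 3 mice, against 4.78 to 16.2 elsewhere. Lymphoid follicle genes (4 of 11 tested) summed to 340, 185 and 121 TPM in the same 3 mice and to 13.1 to 36.0 TPM in the others. Cr2, a receptor of B cells and follicular dendritic cells, was 58.1, 63.8 and 41.8 TPM there and at most 0.894 TPM elsewhere. Mfge8, which bridges dying cells to phagocytes, fell in litter B (−3.32, limma adjusted p = 0.0444), with 118 and 64.4 TPM in Erbb3-FF and 6.01 to 11.4 TPM in ERBB3-dIE mice. Erbb3-FF mice 1 and 2 are the only controls of litter B, so lymphoid content and genotype cannot be told apart there.

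Lyz2 was highest in exactly those 3 libraries, at 181, 99.8 and 56.1 TPM. C1q was not: Erbb3-FF mouse 3 had the lowest C1qa (8.68 TPM), Csf1r (2.23), Adgre1 (0.245) and Cd68 (1.16) of all 12 libraries. Among the Erbb3-FF mice of litter A, however, mouse 3 had the lowest C1qb (7.34 TPM) but the highest C1qc (7.09) and Pla2g7 (3.43). With the mean log2 of the 4 tested follicle genes as a covariate, a fit added after the data were seen, the median of the litter B differences was −0.41. In litter A, C1qc and Pla2g7 passed with this covariate too, and with the B cell list as covariate they did so together with Lyz2 (0.90, limma adjusted p = 0.0115).

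Stroma genes, which mark fibroblasts, also moved with the 10 genes. All 7 summed to 7.61 to 40.4 TPM in Erbb3-FF and 51.1 to 93.1 TPM in ERBB3-dIE mice of litter A, and to 28.2 and 62.5 TPM in Erbb3-FF and 9.22 to 19.2 TPM in ERBB3-dIE mice of litter B. None of the 5 tested passed (medians 1.28 in litter A and −1.31 in litter B). With the mean of these 5 as a covariate, the litter A median of the macrophage and dendritic cell genes was 0.56 with 0 called. In that fit 0 of all 12605 tested genes passed in litter A, against 142 in the main fit, so the lack of calls was table-wide. C1qc was at 1.16 and Pla2g7 at 1.18 there (limma adjusted p = 0.366 and 0.332). The median of the difference between litters was −0.96 with this covariate. Endothelial genes (3 tested) had medians of 0.91 and −1.11, and Pecam1, an adhesion molecule of endothelium and leukocytes, fell in litter B (−1.65, limma adjusted p = 0.0310).

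Smooth muscle genes summed to 116 and 115 TPM in ERBB3-dIE mice 4 and 5 and to at most 37.6 TPM elsewhere. ERBB3-dIE mouse 6, with 4.95 TPM, had the highest C1qb, C1qc, Csf1r, Adgre1 and Pla2g7 of litter A. Without mice 4 and 5 the litter A median was 1.06, with 0 genes called from the 1 remaining ERBB3-dIE mouse, which is assumed to vary like the other groups. The part of lymphoid, stromal and muscle content in the genotype differences was not tested beyond these fits.

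**Figure D5:**
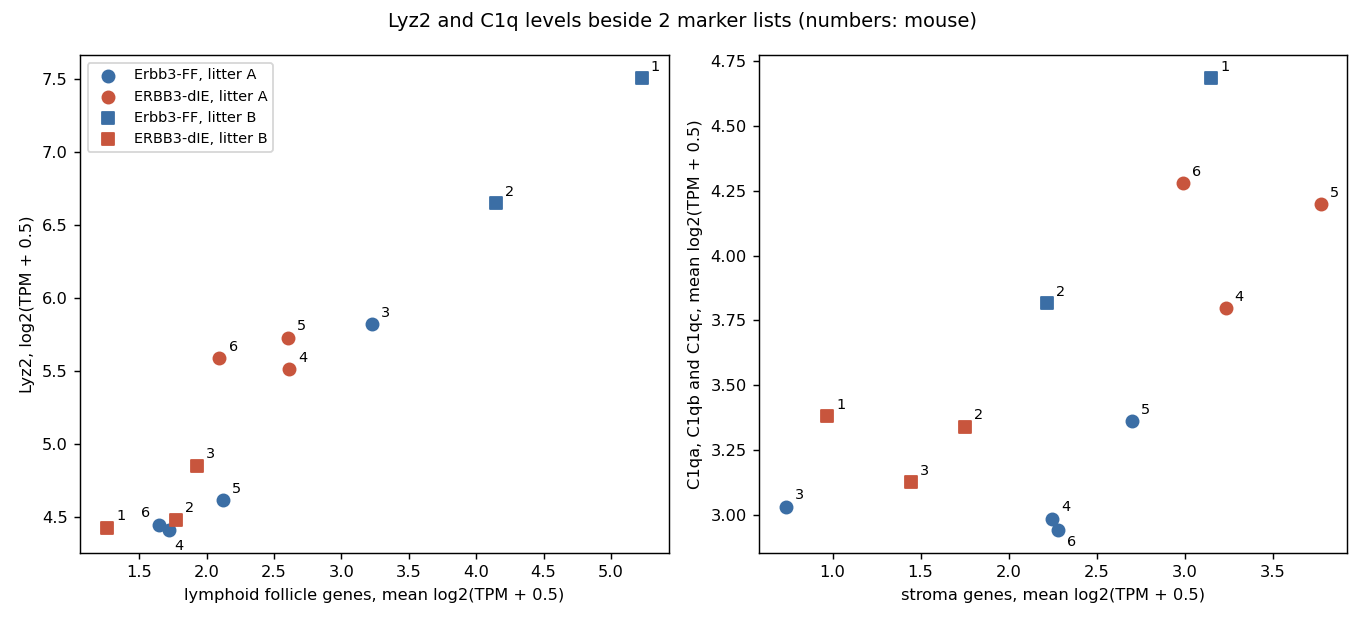
Left, Lyz2 level against the mean of the lymphoid follicle genes, and right, mean level of C1qa, C1qb and C1qc against the mean of the stroma genes, all in log2(TPM + 0.5), 1 point per library. Lyz2 is highest in Erbb3-FF mice 1, 2 and 3, which also have the highest follicle values; the C1q level is highest in Erbb3-FF mouse 1 and ERBB3-dIE mouse 6 (4.69 and 4.28), and mouse 3 has the lowest stroma value (0.74).

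Some genes of other cells differed in the same direction in both litters. T cell and intraepithelial lymphocyte genes had positive medians in both litters (0.88 and 0.90), and Gzma, Cd7 and Cd8a rose over both (1.83, 1.39 and 1.20; limma adjusted p = 0.0267, 0.0129 and 0.0380). Of 6 tested goblet cell genes 3 rose over both litters: Spdef, Agr2 and Muc2 (1.14, 1.07 and 0.89, limma adjusted p at most 0.0125). Of 7 tested enterocyte genes 4 fell, among them Alpi, Apoa1 and Fabp2 (−1.91, −1.71 and −1.44, adjusted p at most 0.0181). Of 5 genes listed for the epithelium as a whole 1 fell, Krt20 (−0.59, adjusted p = 0.0138), which encodes a keratin of differentiated villus cells rather than of all epithelial cells. Plasma cell genes (5 tested) gave 1 call, Mzb1, a chaperone of antibody-secreting cells, lower in litter B (−2.12, adjusted p = 0.0310). Ret, of enteric neurons, was the 1 tested of 5 genes of that list and fell over both litters (−0.65, adjusted p = 0.0467). Of 6 tested Paneth cell genes, Mmp7, which activates defensins, rose over both (1.21, adjusted p = 0.0496), and Lyz1 did not pass in any comparison (adjusted p at least 0.258). Eosinophil and mast cell genes (1 and 2 tested) gave no call, with positive medians in litter B (0.60 and 0.25).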

How the data were processed

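Bulk RNA sequencing gave 1 library per mouse. Per the labels' protocols, mucosa was scraped, RNA was purified by kit, and a strand-marking mRNA kit gave single-end reads of 75 bases. The submitters' processing notes name build GRCm39, Salmon 1.10.0, CASAVA and DESeq2; their annotation release and filters were not given in the sources used here.

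The authors deposited TPM per library, computed by them, which sum to 1000000 and hold no depth. Per the file headers, their table also holds a mean normalized count (the signal baseMean), a log2 fold change with its error, a Wald score and p-values of their own test.

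A filter of 1 TPM or more in 6 or more libraries kept 12605 of 55891 genes, which were tested as log2(TPM + 0.5) with limma 3.58.1 (R 4.3.3; lmFit, eBayes with trend). An additive model of litter and genotype gave the average difference. A model with 1 mean for each of the 4 combinations gave the litters' differences. P-values were adjusted by Benjamini-Hochberg over all tested genes. Single genes also had exact 2-sided permutation tests over 350 arrangements within litters, or 35 and 10 in litters A and B. The scripts were tested on simulated data. P-values measure the spread between mice, 1 library each.

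The 10 genes and all lists were chosen with earlier results of these data known. Named besides them are, per list, up to 3 genes past the threshold in each direction or else the 1 with the smallest p, Lyz1, Csf1, Il34, Cx3cl1, Itgb2, and the 8 genes most correlated with C1q; genes and list markers named for their levels, and library values, were added after their values were seen. Symbols come from the table. Alternatives covered the pseudocount, filter, scaling, weights, covariates, left-out libraries, single litters and mouse number as a block. Covariates of follicle and stroma genes were added after the data were seen. A planned permutation test of the summed C1q level was left out, since the genes were chosen with results known. Figures were drawn with matplotlib 3.10.9.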

Additional observations from a re-analysis of the deposited data

Results flagged for a closer look

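5 values stood apart within their group, each by a gap to the next library that exceeded Dixon's 95% limit for the group's range, in 30 groups examined (10 genes in all Erbb3-FF, all ERBB3-dIE and the Erbb3-FF mice of litter A). Chance alone marks about 1 group in 20. Among the 4 Erbb3-FF mice of litter A, Lyz2 was 56.1 TPM in mouse 3 with the next value at 24.0, C1qa was 15.2 TPM in mouse 5 with the next at 9.28, and Itgax was 2.99 TPM in mouse 4 with the next at 1.59. Among all 6 Erbb3-FF mice, mouse 1 had 31.2 TPM of C1qa with the next at 15.6, and 27.0 TPM of C1qb with the next at 13.6. Mouse 3 is one of the 3 libraries rich in B cell genes and mouse 5 one of the 2 rich in ribosomal sequence.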

How the results depend on the processing

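Over both litters, 0 of the 9 genes passed under any of 18 alternatives, where the median ran from −0.12 to 0.54. One of these, a filter of 5 TPM, tested only 4 of the 9. In all 12 fits without 1 library 0 passed as well, and the median ran from −0.05 to 0.42. With mouse number as a replicate block and no litter term, the median was 0.14 with 0 genes called and 755 of all genes. Same-numbered mice correlated at 0.07 to 0.36. This measure is not the correlation between whole libraries given above (0.878 to 0.955) and cannot be set beside it. By it 2 of 6 mice correlated best with their own number, and 5 of 6 pairs shared a litter. The numbers were therefore not taken as pairs, and the block changed no call. Small average differences changed sign. Lyz2 became 0.53 with the B cell and 0.47 with the follicle covariate. With the stroma covariate C1qb was −0.10, Csf1r −0.0401 and Pla2g7 −0.000629. Without Erbb3-FF mice 5 and 6, C1qb was −0.12 and Pla2g7 −0.10. Without ERBB3-dIE mice 4 and 5, C1qa was −0.0617, C1qb −0.20, C1qc −0.0417, Csf1r −0.12 and Pla2g7 −0.25. Without 1 library, C1qb ran from −0.17 to 0.405, Csf1r from −0.0947 to 0.293 and Pla2g7 from −0.0536 to 0.451.

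In litter A the median was 0.74 to 0.98 and 0 to 3 genes were called without 1 library, when 0 to 216 of all 12605 tested genes were. Brackets below give the number called among all tested genes. The number called was 0 with no filter (65 of 27814) and with the smooth muscle (1 of 12605) or stroma covariate (0). It was also 0 without Erbb3-FF mice 5 and 6 (14) or in litter A alone (6). It was 1 with quantile normalization (441 of 12605). With a filter of 5 TPM it was 1 of only 4 genes tested (168 of 8984), and Pla2g7 was not among the 4. With the B cell covariate (242) it was 3, Lyz2 beside C1qc and Pla2g7, and with library weights (579) it was 4. The median was 0.56 with the stroma covariate and 1.06 without ERBB3-dIE mice 4 and 5. Itgax became 0.00409 with the smooth muscle covariate and 0.0852 without ERBB3-dIE mice 4 and 5, and ran from −0.132 to 0.160 without 1 library.

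In litter B the median was −1.30 to −0.65 without 1 library. With both of its control mice kept, 0 to 2 genes were called in those fits (9 to 361 of all 12605). The number called was 1 with no filter (227 of 27814). With a filter of 5 TPM, which left Pla2g7 untested, it was 1 of only 4 genes tested (107 of 8984). It was 1 with quantile normalization (125 of 12605), median-of-ratios scaling (128) or the stroma covariate (250). It was 0 with the smooth muscle (23), B cell (2) or follicle covariate (1), without Erbb3-FF mice 5 and 6 (24), or in litter B alone (15). With the follicle covariate the median was −0.41 and Cx3cr1 became 0.0403, and with the stroma covariate Cd68 became 0.0391.

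The difference between litters stayed negative for each of the 9 genes under every alternative in which the gene was tested. A filter of 5 TPM tested only 4 of them. The median of this difference was −2.37 to −1.51 without 1 library. Among such fits that kept both controls of litter B, only that without Erbb3-FF mouse 3 called any, namely 3 (36 of all 12605). With no filter 1 was called (53 of all 27814) and with library weights 3 (12 of 12605). With the B cell covariate 1 was called (4 of 12605), Lyz2 at −1.88. The median was −1.42 with the follicle and −0.96 with the stroma covariate. The cause of these shifts was not tested. With 2 control mice in litter B and depth unknown, low genes such as Adgre1 are the least certain.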

Other observations

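Values outside the comparisons above are few. Without the filter on low values, Adgre1 was tested among 27814 genes and had a difference of 0.79 in litter A (SE 0.26, limma adjusted p = 0.236) and −0.18 in litter B (SE 0.31, adjusted p = 0.928). Plac8, listed with the monocyte genes, was at 858 to 1442 TPM in all 12 libraries, far above Ccr2 (0.0563 to 0.570 TPM), which marks monocytes that enter tissue. In the authors' deposited table the mean normalized count was 647 for Lyz2, 211 for Csf1r and 33.8 and 27.3 for Cd68 and Adgre1.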
